A study of Mus musculus with 6 samples.

Results

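The splicing factor and hnRNP genes described here were the genes whose platform symbol begins with Srsf, Snrp, Snrnp, Hnrn, Sf3a, Sf3b or Prpf, or with Lsm followed by a digit, leaving out Snrpn. The rule itself used names only, though it was chosen with earlier results of these data known. It was applied to the authors' value table, which holds 11542 of the 45281 probes. Srsf7, Snrpc, Snrpe, Snrnp40, Sf3b1 and Hnrnpu had no named probe there, so the families are not complete. The rule found 113 probes of 64 genes, of the 7312 named genes in that table. They fell into 7 families by name. After a filter on detection, 109 probes of 63 genes were tested among 6823 genes, and Snrpb2 was not tested. The other 3 probes left out belonged to Srsf2, Prpf8 and Hnrnpk, which kept at least 1 other probe each.

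Expression was measured on Illumina mouse BeadChips, 1-colour arrays of bead-bound probes, in 6 samples. All came from male mouse cells of a 129 x MF1 background that carried a Nanog transgene. Mouse embryonic stem cells (mESCs, 2 arrays) were grown on fibronectin in N2B27 medium with CHIR99021 at 3 µM, PD0325901 at 1 µM and LIF at 1000 U/ml. Cytokine PGCLCs (primordial germ cell-like cells, 2 arrays) were taken on day 4 in GK15 medium with 500 ng/ml of BMP4 and of BMP8A, 100 ng/ml of SCF, 50 ng/ml of EGF and 1000 U/ml of LIF. Nanog PGCLCs (2 arrays) were taken on day 4 in GK15 medium with doxycycline at 0.7 µg/ml. Both kinds of PGCLC were made from epiblast-like cells, which were not measured here. Medium and cell type therefore cannot be told apart in either comparison with mESCs. The study was designed to characterise Nanog-induced PGCLCs against mESCs and against cytokine-induced PGCLCs. The labels do not tie the 2 arrays of a group to separate cultures, and the p-values cover the spread of these arrays alone, and that spread may be technical. Whether the PGCLCs were sorted, and the promoter and clone behind the transgene, are not given in the sources used here.

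Splicing removes introns from pre-mRNA. It is carried out by the spliceosome, which is built from small nuclear ribonucleoproteins (snRNPs), each a small nuclear RNA held in a ring of Sm or LSM proteins. The U1 snRNP reads the 5′ splice site, the U2 snRNP with its SF3A and SF3B subunits reads the branch point, and the U4/U6.U5 tri-snRNP, which holds several PRPF factors, then joins to form the catalytic centre. SR proteins (Srsf genes) mostly promote the use of exons, and hnRNP proteins often oppose them, so their relative amounts influence alternative splicing.

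The promoters of 3 genes are shown, 1 that rose and 2 that fell in both kinds of PGCLC. They come from RefSeq on the GRCm38.p6 build and run from 250 bases before to 50 bases after a start of the gene, on the coding strand. Capitals mark 3 words found on either strand: CCGGAAG (an ETS core), GGGCGG (a GC box) and CCAAT. Prpf40b, with the largest increase of the tested members in PGCLCs, lies on chromosome 15, and the first of its 2 listed promoters is chr15:99294991-99295290 on the plus strand, with 5 GC boxes and 1 CCAAT word. Srsf6, with the largest decrease of the tested members in cytokine PGCLCs, has its promoter at chr2:162931258-162931557 on the plus strand, with 2 GC boxes. Hnrnpl, lower in both kinds of PGCLC, has its promoter at chr7:28810640-28810939 on the plus strand, with 2 GC boxes and 4 CCAAT words.
Prpf40b promoter: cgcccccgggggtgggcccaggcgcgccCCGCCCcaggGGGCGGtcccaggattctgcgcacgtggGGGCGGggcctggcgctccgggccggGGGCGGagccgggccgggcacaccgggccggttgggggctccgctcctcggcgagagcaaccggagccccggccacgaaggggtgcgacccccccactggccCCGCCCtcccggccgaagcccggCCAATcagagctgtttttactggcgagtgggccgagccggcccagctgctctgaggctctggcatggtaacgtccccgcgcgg
Srsf6 promoter: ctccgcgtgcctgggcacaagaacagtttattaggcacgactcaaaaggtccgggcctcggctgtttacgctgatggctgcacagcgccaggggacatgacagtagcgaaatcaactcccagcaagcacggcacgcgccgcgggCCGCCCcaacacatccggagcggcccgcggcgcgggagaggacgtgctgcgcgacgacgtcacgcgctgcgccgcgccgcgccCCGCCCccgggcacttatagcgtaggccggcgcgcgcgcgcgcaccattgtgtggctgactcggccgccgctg
Hnrnpl promoter: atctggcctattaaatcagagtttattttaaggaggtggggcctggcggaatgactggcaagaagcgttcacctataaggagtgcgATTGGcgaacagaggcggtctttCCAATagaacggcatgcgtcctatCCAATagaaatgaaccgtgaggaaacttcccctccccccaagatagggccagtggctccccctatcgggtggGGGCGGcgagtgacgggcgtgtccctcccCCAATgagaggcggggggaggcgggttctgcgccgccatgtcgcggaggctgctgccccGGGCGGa

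RefSeq listed 70 promoters for 53 of the 63 tested genes, and the same words were counted in all 32851 promoters of that length, members included. The ETS core CCGGAAG was in 31.4% of member promoters and 8.86% of all promoters. The GC box GGGCGG was in 68.6% against 35.7%, and CCAAT was in 51.4% against 37.4%. The word TATAAA was in 8.57% of member promoters and 13.6% of all. Member promoters held 61.5% G and C bases against 53.8% over all promoters, so the words rich in G and C cannot be told apart from base composition. AAGATGGCG, a YY1 word, was in 2.86% against 1.40%. These are matches of letters and not shown to be bound.

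The arrays had median raw intensities of 226 to 294, and 8788 to 10028 of 45281 probes were detected on each at a detection p below 0.01. Of the 113 member probes, 102 to 107 were detected on each array. The PGCLC label was checked against germ cell markers: all 6 listed (Tfap2c, Prdm14, Nanos3, Dnd1, Dppa3 and Rhox9) were higher in both kinds of PGCLC than in mESCs. Between the kinds of PGCLC, 3 of the 6 were lower in Nanog PGCLCs and 3 were not called. Of 6 pluripotent cell markers (Pou5f1, Sox2, Nanog, Esrrb, Zfp42 and Klf4), 1 was higher and 1 lower in Nanog PGCLCs than in mESCs. In cytokine PGCLCs 1 was lower than in mESCs and 5 were not called. The summed level of these 6 was 22500 to 22570 in mESCs, 21920 to 23880 in cytokine PGCLCs and 21670 to 22010 in Nanog PGCLCs. Of 2 Nanog probes, 1 read 11.49 and 11.56 on the log2 scale in the mESC pair, 10.94 and 10.80 in the cytokine pair and 12.73 and 12.60 in the Nanog pair of arrays. The other Nanog probe was not higher in Nanog PGCLCs, with a log2 difference from mESCs of −0.26 ± 0.11 (SE; limma adjusted p over probes = 0.0738) and from cytokine PGCLCs of −0.38 ± 0.11 (adjusted p = 0.0414). Blood markers (Hba-x, Hbb-bh1 and Hbb-y) were detected in cytokine PGCLCs and in neither other group, with a summed normalized intensity of 1625 to 1658 against 191 to 202 in mESCs and 155 to 175 in Nanog PGCLCs. The summed level of 3 mesoderm and trophoblast markers (Cdx2, Gata2 and Krt8) was 1341 to 1364 in cytokine PGCLCs, 325 to 408 in mESCs and 317 to 347 in Nanog PGCLCs. Of 4 primed epiblast markers tested (Fgf5, Otx2, Cldn6 and Lefty2), 4 were higher in Nanog PGCLCs than in mESCs and 3 higher than in cytokine PGCLCs. Their summed level was 4180 to 4842 in Nanog PGCLCs, 3097 to 3241 in cytokine PGCLCs and 1810 to 2019 in mESCs. The 1 endoderm marker tested, Dab2, was higher in cytokine PGCLCs than in either other group (134 to 153, against 104 to 107 in mESCs and 91.35 to 102.4 in Nanog PGCLCs). The 1 neural marker tested, Nes, was lower in Nanog PGCLCs than in either other group (76.85 to 90.89, against 144.5 to 193.3 in mESCs and 131 to 153 in cytokine PGCLCs). The part of such cells in the differences below was not tested, and in these bulk samples fewer cells of a type and less RNA per cell cannot be told apart.

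Values below are normalized log2 intensities, and differences are log2 fold changes between group means with their standard error from limma's fit across all genes (2 arrays a group). A gene was called at a Benjamini-Hochberg adjusted p below 0.05 over all 6823 genes, and "rose", "fell", "higher" and "lower" are used of called genes only. Levels of different genes come from different probes and are not compared.

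Most splicing factor genes were not called between mESCs and Nanog PGCLCs, and among the called genes more were lower than higher. Of the 63 genes, 9 were higher and 18 lower, and 36 were not called. This is 42.9% called, against 54.0% of all genes tested (28.2% higher and 25.9% lower). The median log2 difference of the members was −0.07, against −0.00 over all genes. With each array scaled to its median in place of quantile normalization, 15 were higher and 8 lower. That scaling moved the median of all genes by 0.21, and the median of the members relative to all genes was then −0.20.

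Cytokine PGCLCs, compared with the same mESC arrays, gave 12 genes higher, 21 lower and 30 not called. This is 52.4% called, against 54.7% of all genes (29.9% higher and 24.8% lower), so the share called was close to the background. The member median was −0.09, against 0.01 over all genes. With median scaling, 12 were higher and 13 lower, the median of all genes moved by 0.16, and the median of the members relative to it was −0.21. Only 7 members were higher without cytokine array 2, and 12 were lower without mESC array 2 or without cytokine array 2. The 2 comparisons share their mESC arrays, so their values are not independent of each other.

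Few of these genes were called between Nanog and cytokine PGCLCs. The comparison called 3 of 63 higher in Nanog PGCLCs (Lsm10, Hnrnpa0 and Hnrnpd) and 2 lower (Sf3b3 and Prpf3). This is 7.94% of the members against 22.3% of all genes (11.3% higher and 11.1% lower). The member median was −0.00 and that of all genes −0.02. Without background correction, with the authors' value table or with a variance trend, 6 were higher and 6 lower. The count of higher genes was 0 without any 1 of the 4 PGCLC arrays, and the count of lower genes was 1 without either cytokine array.

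**Figure D1:**
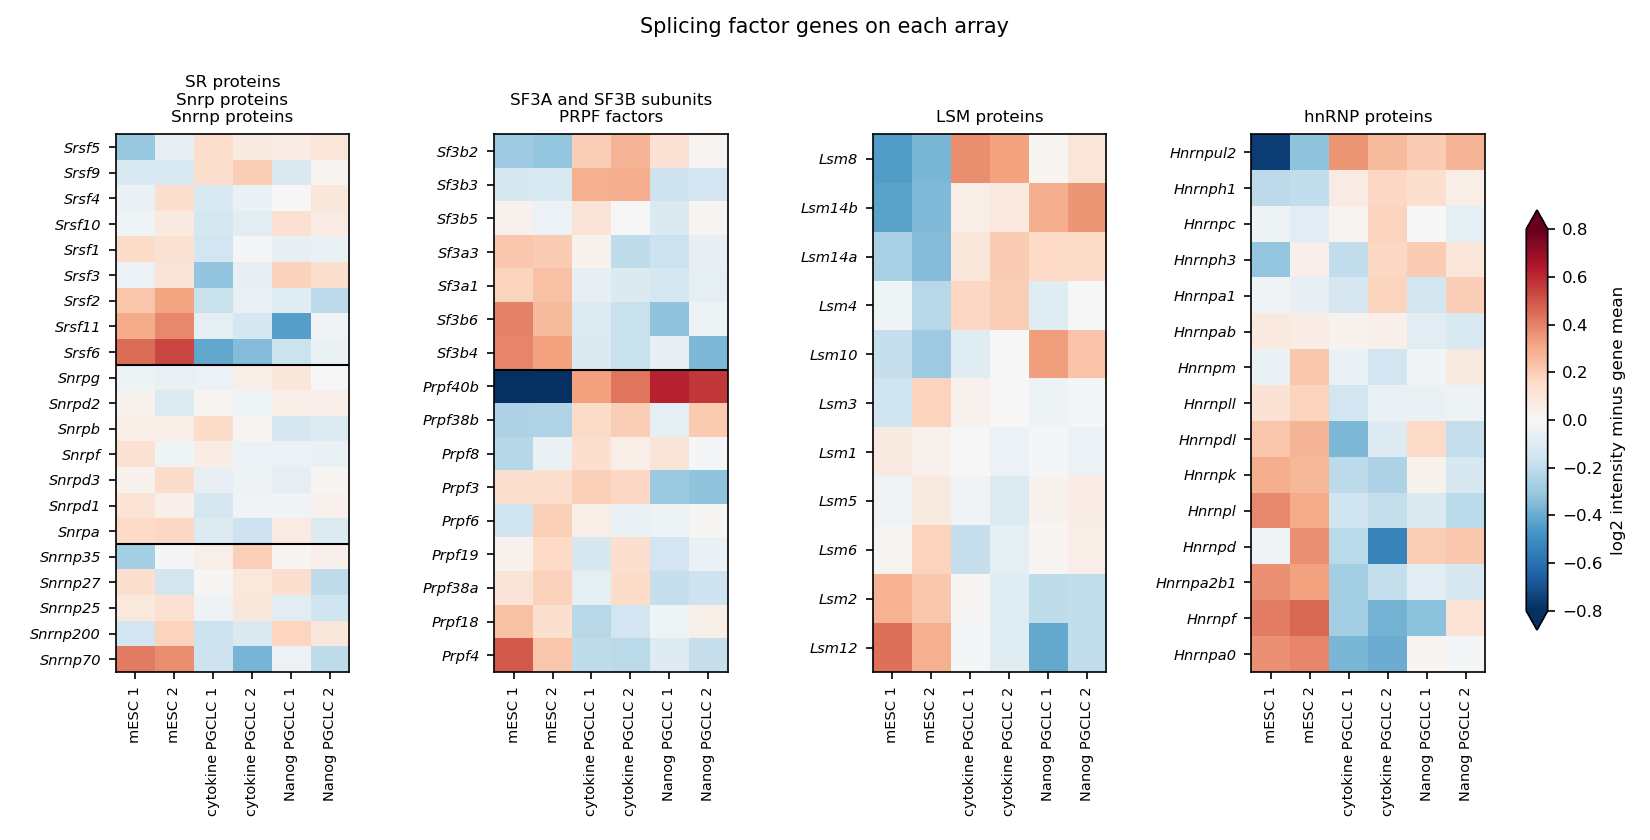
Heat map of the 63 tested genes (rows, by family) over the 6 arrays (columns). Colour is the normalized log2 intensity minus that gene's mean over the 6 arrays, with the scale ending at 0.8 in each direction. Prpf40b is below the end of the scale on both mESC arrays and above its mean on all 4 PGCLC arrays.

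**Figure D2:**
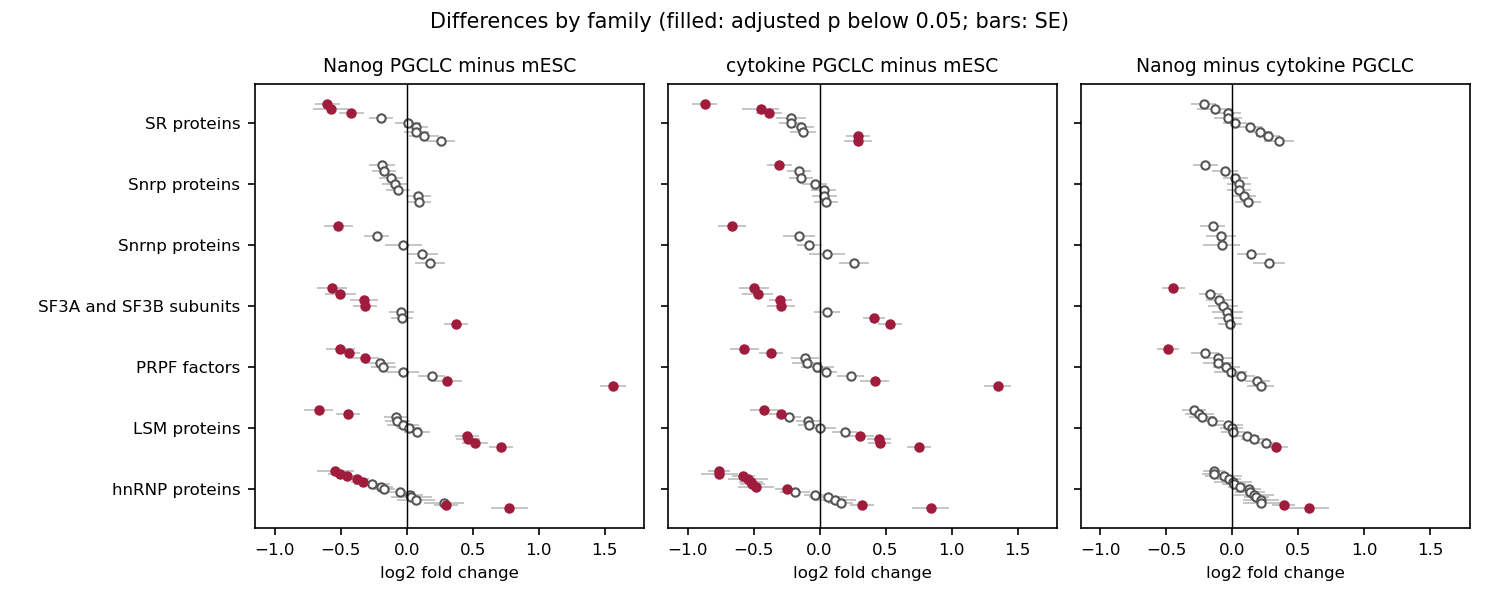
Log2 fold changes of the 63 genes by family in each of the 3 comparisons, with standard errors as bars and filled points for genes called at an adjusted p below 0.05. Called genes lie on both sides of 0 against mESCs, and 5 of 63 are called between the kinds of PGCLC.

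Of the SR proteins, each read by its brightest probe, 3 of 9 tested fell in Nanog PGCLCs and none rose. In cytokine PGCLCs 3 fell and 2 rose. The 33.3% lower in each is near the 25.9% and 24.8% of all genes, and so is no result about the family. The shares higher were 0% and 22.2%, against 28.2% and 29.9% of all genes. Srsf6, an SR protein that binds exonic enhancers, read 10.70 and 10.78 in the mESC pair, 9.83 and 9.90 in the cytokine pair and 10.08 and 10.20 in the Nanog pair of arrays. Both kinds of PGCLC lay below both mESC arrays without overlap. The log2 difference was −0.87 ± 0.09 in cytokine PGCLCs (1.83-fold, limma adjusted p = 0.000135) and −0.60 ± 0.09 in Nanog PGCLCs (1.52-fold, adjusted p = 0.000966). The direct difference between the kinds of PGCLC was 0.27 ± 0.09 with an adjusted p of 0.0743. The second Srsf6 probe gave 0.06 and 0.31 and was not called, and a mean over both probes ended the call in both comparisons (−0.27 and −0.28).

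Srsf2, which keeps many constitutive exons in mRNA, read 13.09 and 13.18 in the mESC pair, 12.69 and 12.81 in the cytokine pair and 12.77 and 12.66 in the Nanog pair of arrays. It fell in both, by 0.38 ± 0.10 (adjusted p = 0.0109) and 0.42 ± 0.10 (adjusted p = 0.00723) on the log2 scale. The cytokine call was lost without mESC array 2 (−0.34) or cytokine array 1 (−0.32). Srsf11 read 10.51 and 10.61 in the mESC pair, 10.15 and 10.08 in the cytokine pair and 9.77 and 10.19 in the Nanog pair of arrays, and the Nanog arrays were spread more widely than the others. Its difference of −0.58 ± 0.14 (adjusted p = 0.00789) in Nanog and −0.45 ± 0.14 (adjusted p = 0.0236) in cytokine PGCLCs was opposite to that of another of its probes, which is described with the probes. The cytokine call of Srsf11 was lost without mESC array 2 (−0.40), cytokine array 1 (−0.48) or cytokine array 2 (−0.41).

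Srsf5 was called higher in cytokine PGCLCs (0.29 ± 0.10, adjusted p = 0.0429) and not in Nanog PGCLCs (0.26 ± 0.10, adjusted p = 0.0642). The cytokine call was lost without mESC array 1 (0.18), either cytokine array (0.26 and 0.33) or either Nanog array (0.29 each). A dimmer Srsf5 probe was higher in both, at 0.38 ± 0.10 in Nanog and 0.41 ± 0.10 in cytokine PGCLCs (adjusted p over probes = 0.0157 and 0.0118). Srsf1, the first SR protein described, was not called: its log2 differences were −0.20 ± 0.09 in Nanog PGCLCs and −0.22 ± 0.09 in cytokine PGCLCs. Srsf3 had differences of 0.13 and −0.22, and 0.35 ± 0.11 between Nanog and cytokine PGCLCs (adjusted p = 0.0587).

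The Snrp genes include the Sm ring proteins, which hold the small nuclear RNA of most snRNPs. Among the 7 tested Snrp genes, each read by its brightest probe, no gene was called in Nanog PGCLCs, where log2 differences ran from −0.19 to 0.10, and 1 was called in cytokine PGCLCs. These are 0% and 14.3% of the family, against 54.0% and 54.7% of all genes. Snrpd2, the family member with the highest mean, read 12.89 and 12.75 in the mESC pair, 12.89 and 12.83 in the cytokine pair and 12.92 and 12.90 in the Nanog pair of arrays. The log2 differences from mESCs were 0.09 ± 0.09 in Nanog and 0.04 ± 0.09 in cytokine PGCLCs, within their standard errors. Snrpb gave −0.17 and 0.03, and Snrpd1 gave −0.07 and −0.15, none of them called. Of 2 dimmer Snrpb probes, 1 was lower in both, at −0.35 ± 0.10 in Nanog and −0.36 ± 0.10 in cytokine PGCLCs (adjusted p over probes = 0.0176 and 0.0151). Snrpa, a U1 snRNP protein, read 10.81 on both mESC arrays, 10.53 and 10.48 in the cytokine pair and 10.71 and 10.53 in the Nanog pair. It was called lower in cytokine PGCLCs (−0.30 ± 0.10, adjusted p = 0.0278) and not in Nanog PGCLCs (−0.19 ± 0.10, adjusted p = 0.133), and the cytokine call was lost without any 1 of the mESC or cytokine arrays (−0.28 to −0.33). A dimmer Snrpa probe was lower in cytokine PGCLCs by a log2 difference of −0.61 ± 0.10 (adjusted p over probes = 0.00121), and higher in Nanog than in cytokine PGCLCs by 0.35 ± 0.10 (adjusted p over probes = 0.0378).

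The Snrnp genes encode particle-specific proteins of the U1, U5 and minor U11/U12 snRNPs and of the tri-snRNP. Of 5 tested, 1 was called, a share of 20% in each comparison with mESCs, against 54.0% and 54.7% of all genes. This was Snrnp70, which holds U1 RNA at the 5′ splice site. It read 9.80 and 9.75 in the mESC pair, 9.22 and 9.01 in the cytokine pair and 9.34 and 9.18 in the Nanog pair of arrays, with no overlap between mESCs and PGCLCs. It fell by 0.66 ± 0.11 in cytokine PGCLCs (1.58-fold, adjusted p = 0.00117) and by 0.52 ± 0.11 in Nanog PGCLCs (1.43-fold, adjusted p = 0.00417). Snrnp200, the helicase that unwinds U4 from U6, gave 0.12 and −0.16. Snrnp25 and Snrnp35, of the minor spliceosome, gave −0.23 and 0.17 in Nanog PGCLCs and −0.08 and 0.26 in cytokine PGCLCs. None of these 3 was called.

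The branch point complex held both directions. Of 7 SF3A and SF3B subunits, 1 rose and 4 fell in Nanog PGCLCs (median −0.32, −0.20 with median scaling), and 2 rose and 4 fell in cytokine PGCLCs (median −0.29, −0.22 with median scaling). The share lower was 57.1% in each, against 25.9% and 24.8% of all genes. It depended on the scaling. With median scaling the lower calls of Sf3a1, Sf3a3 and Sf3b6 in Nanog PGCLCs and of Sf3b6 in cytokine PGCLCs were lost. The shares higher were 14.3% and 28.6%, against 28.2% and 29.9%. Sf3b2 binds pre-mRNA beside the branch point. It read 11.54 and 11.52 in the mESC pair, 12.02 and 12.10 in the cytokine pair and 11.94 and 11.85 in the Nanog pair of arrays. It rose by 0.54 ± 0.09 in cytokine PGCLCs (1.45-fold, adjusted p = 0.00142) and by 0.37 ± 0.09 in Nanog PGCLCs (adjusted p = 0.00914), the latter call being lost without Nanog array 1 (0.32).

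Sf3b3, a scaffold subunit of SF3B, differed between the kinds of PGCLC. It read 10.79 and 10.80 in the mESC pair, 11.20 and 11.21 in the cytokine pair and 10.75 and 10.77 in the Nanog pair of arrays, so only the cytokine arrays stood higher. It was higher in cytokine PGCLCs than in mESCs by 0.41 ± 0.09 (1.33-fold, adjusted p = 0.00414) and lower in Nanog than in cytokine PGCLCs by a log2 difference of −0.45 ± 0.09 (adjusted p = 0.00833). The last call was lost without either cytokine array (−0.45 and −0.44). The blood and mesoderm markers given above were also higher in the cytokine arrays only, and their part was not tested.

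Sf3b4, which holds the U2 snRNP to pre-mRNA, read 11.46 and 11.39 in the mESC pair, 10.95 and 10.89 in the cytokine pair and 10.9998 and 10.71 in the Nanog pair of arrays. It fell in both, by 0.50 ± 0.11 (adjusted p = 0.00664) and 0.57 ± 0.11 (adjusted p = 0.00355). Sf3b6, the branch point protein p14, read 7.70 and 7.56, then 7.20 and 7.13, then 6.98 and 7.27 in the same order of groups, and was called lower in both (−0.47 ± 0.12 and −0.51 ± 0.12). Its call ended with median scaling in both (−0.22 and −0.20), and the cytokine call was lost without mESC array 1 (−0.40) or cytokine array 2 (−0.43). Sf3a1 was lower by a log2 difference of −0.32 ± 0.09 in Nanog and −0.30 ± 0.09 in cytokine PGCLCs. Those calls were lost without mESC array 2 (−0.29 and −0.27), Nanog array 1 (−0.28, Nanog comparison) or either cytokine array (−0.32 and −0.27, cytokine comparison).

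Among the PRPF factors, 2 of 9 rose and 3 fell in Nanog PGCLCs, and 2 rose and 2 fell in cytokine PGCLCs. The 33.3% and 22.2% lower are near the 25.9% and 24.8% of all genes. The 22.2% higher in each is near the 28.2% and 29.9% of all genes, so these counts are no result about the family. Prpf40b, whose promoter is shown above, read 7.01 and 7.19 in the mESC pair, 8.40 and 8.50 in the cytokine pair and 8.69 and 8.64 in the Nanog pair of arrays, and its probe was detected on 1 of 2 mESC arrays and on all 4 PGCLC arrays. It rose by 1.56 ± 0.10 in Nanog PGCLCs (2.95-fold, adjusted p = 1.03e-05) and by 1.35 ± 0.10 in cytokine PGCLCs (2.55-fold, adjusted p = 2.06e-05), with a difference between them of 0.21 ± 0.10 (adjusted p = 0.169). By brightest probes it was the only member past 2-fold in either comparison.

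Prpf3, a U4/U6 protein of the tri-snRNP, was lower in Nanog PGCLCs than in either other group. It read 10.62 and 10.63 in the mESC pair, 10.69 and 10.66 in the cytokine pair and 10.20 and 10.17 in the Nanog pair of arrays. The log2 difference was −0.44 ± 0.09 against mESCs (adjusted p = 0.00299) and −0.49 ± 0.09 against cytokine PGCLCs (1.40-fold, adjusted p = 0.00587), and 0.05 ± 0.09 between cytokine PGCLCs and mESCs (adjusted p = 0.656). All 3 of its probes were called lower against mESCs, and the call against cytokine PGCLCs was kept under each alternative tried.

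Prpf4, the partner of Prpf3 in the U4/U6 snRNP, read 9.58 and 9.31 in the mESC pair, 8.88 and 8.87 in the cytokine pair and 8.98 and 8.90 in the Nanog pair of arrays. It fell in both, by 0.57 ± 0.11 (adjusted p = 0.00283) and 0.50 ± 0.11 (adjusted p = 0.00528), the second call being lost with median scaling (−0.27). Prpf8, the core of the catalytic centre, gave 0.19 and 0.23, and Prpf19, a ubiquitin ligase of the spliceosome, gave −0.20 and −0.09, none of them called by the brightest probe. The other 2 Prpf19 probes were lower in Nanog PGCLCs than in mESCs, at −0.32 ± 0.11 and −0.44 ± 0.10 (adjusted p over probes = 0.0395 and 0.0081). The first of them was also lower in Nanog than in cytokine PGCLCs (−0.42 ± 0.11, adjusted p over probes = 0.0324). Prpf38b was called higher in cytokine PGCLCs (0.42 ± 0.11) and in Nanog PGCLCs (0.31 ± 0.11). These calls were lost without either cytokine array in both (0.44 and 0.40, and 0.31 each). The Nanog call was also lost without either mESC array (0.30 and 0.31) or Nanog array 2 (0.16). It was lost as well with the authors' value table, without background correction and with a variance trend. Detection on at least 1 array or adjustment over all probes also ended it.

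**Figure D3:**
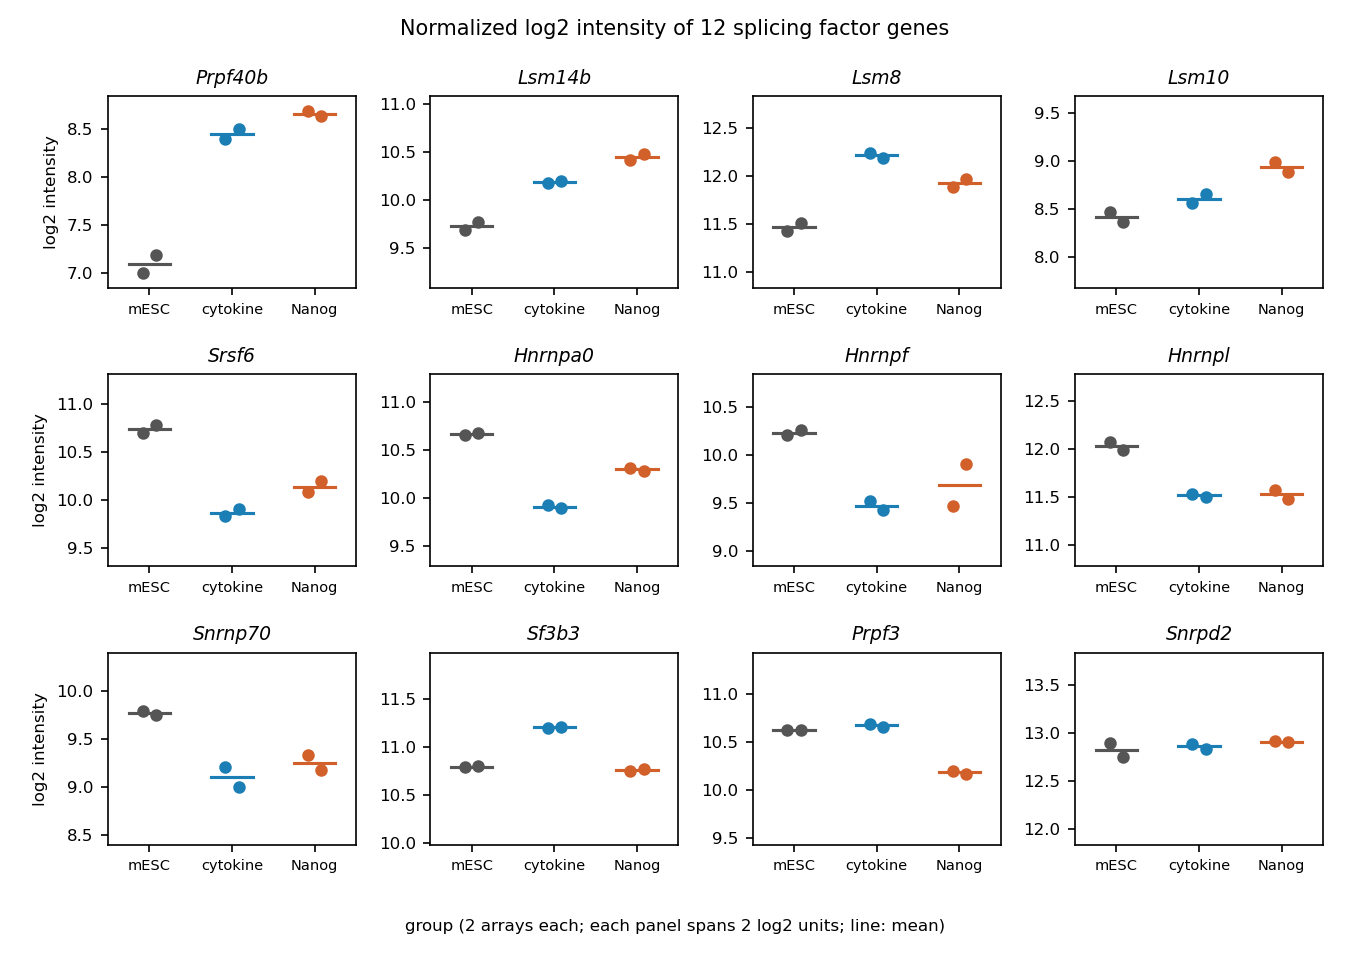
Normalized log2 intensity of 12 genes, with 1 point per array and a line at each group's mean. Each panel spans 2 log2 units, so the sizes of the differences can be compared between panels. Sf3b3 is raised in cytokine PGCLCs only, Prpf3 is lowered in Nanog PGCLCs only, and Snrpd2 is level.

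Of 11 LSM proteins tested, 4 rose and 2 fell in each comparison with mESCs. The 36.4% higher is near the 28.2% and 29.9% of all genes, and so is no result about the family. Lsm2 to Lsm8 form the ring on U6 RNA, and Lsm1 takes the place of Lsm8 in the cytoplasmic ring that promotes decay of mRNA. Lsm8 read 11.43 and 11.51 in the mESC pair, 12.25 and 12.20 in the cytokine pair and 11.89 and 11.97 in the Nanog pair of arrays. It rose by 0.75 ± 0.09 in cytokine PGCLCs (1.68-fold, adjusted p = 0.000246) and by 0.46 ± 0.09 in Nanog PGCLCs (adjusted p = 0.00319), with a difference of −0.29 between them (adjusted p = 0.0537). Lsm1 gave −0.08 in each comparison and was not called.

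Lsm14a and Lsm14b are mRNA storage proteins that carry an LSM fold and are not ring subunits of U6. Lsm14b read 9.69 and 9.77 in the mESC pair, 10.17 and 10.19 in the cytokine pair and 10.41 and 10.47 in the Nanog pair of arrays, in that order of groups without overlap. It rose by 0.71 ± 0.09 in Nanog PGCLCs (1.64-fold, adjusted p = 0.000294) and by 0.46 ± 0.09 in cytokine PGCLCs (1.37-fold, adjusted p = 0.00298). Lsm14a read 9.99 and 9.90, then 10.34 and 10.45, then 10.40 and 10.40, and rose by 0.45 ± 0.09 (adjusted p = 0.00388) and 0.46 ± 0.09 (adjusted p = 0.00359) in cytokine and Nanog PGCLCs.

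Lsm10, which in the U7 snRNP serves the processing of histone mRNA, read 8.47 and 8.37 in the mESC pair, 8.56 and 8.66 in the cytokine pair and 8.99 and 8.89 in the Nanog pair of arrays. It rose by 0.52 ± 0.10 in Nanog PGCLCs (adjusted p = 0.00231) and was not called in cytokine PGCLCs (0.19 ± 0.10, adjusted p = 0.126). The direct difference between them was 0.33 ± 0.10 (adjusted p = 0.042), a call lost without any 1 of the 4 PGCLC arrays (0.28 to 0.38). Lsm4 was called higher in cytokine PGCLCs (0.31 ± 0.10, adjusted p = 0.0292), which was lost without mESC array 2 (0.22) or either cytokine array (0.33 and 0.29).

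The LSM genes that fell were Lsm12 and Lsm2. Lsm12 read 9.76 and 9.60 in the mESC pair, 9.30 and 9.23 in the cytokine pair and 8.91 and 9.12 in the Nanog pair of arrays, a difference of −0.67 ± 0.11 in Nanog (1.59-fold, adjusted p = 0.00127) and −0.42 ± 0.11 in cytokine PGCLCs (adjusted p = 0.0125). The cytokine call was lost without mESC array 1 (−0.34) or cytokine array 2 (−0.38). Lsm2, of the U6 ring, was at −0.45 ± 0.09 in Nanog PGCLCs (adjusted p = 0.00367) and −0.29 ± 0.09 in cytokine PGCLCs (adjusted p = 0.0251). Its Nanog call was lost with median scaling (−0.27), and its cytokine call was lost without either mESC array (−0.26 and −0.33) or cytokine array 2 (−0.24).

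Of 15 hnRNP genes, 5 fell and 2 rose in Nanog PGCLCs (median −0.17, −0.03 with median scaling), and 8 fell and 2 rose in cytokine PGCLCs (median −0.25 in both scalings). The shares lower were 33.3% and 53.3%, against 25.9% and 24.8% of all genes. With median scaling the lower calls of Hnrnpa0, Hnrnpf and Hnrnpk in Nanog PGCLCs and of Hnrnpd and Hnrnpll in cytokine PGCLCs were lost. Hnrnpa0 read 10.66 and 10.68 in the mESC pair, 9.92 and 9.89 in the cytokine pair and 10.31 and 10.29 in the Nanog pair of arrays. It fell by 0.76 ± 0.09 in cytokine PGCLCs (1.70-fold, adjusted p = 0.000171) and by 0.37 ± 0.09 in Nanog PGCLCs (adjusted p = 0.00684), and the latter call was lost with median scaling (−0.22). It was higher in Nanog than in cytokine PGCLCs by 0.39 ± 0.09 (adjusted p = 0.0156), which was lost without any 1 of the 4 PGCLC arrays (0.37 to 0.40) and which its second probe does not share.

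Hnrnpl, which represses exons next to CA repeats, read 12.07 and 11.99 in the mESC pair, 11.53 and 11.50 in the cytokine pair and 11.57 and 11.48 in the Nanog pair of arrays. It fell by 0.52 ± 0.09 in cytokine PGCLCs (adjusted p = 0.00178) and by 0.51 ± 0.09 in Nanog PGCLCs (adjusted p = 0.00201), with both calls kept under each alternative tried. Hnrnpf, which binds G-rich RNA, read 10.21 and 10.26, then 9.53 and 9.43, then 9.48 and 9.91, and the 2 Nanog arrays were far apart. It fell by 0.76 ± 0.14 in cytokine PGCLCs (1.69-fold, adjusted p = 0.00225) and by 0.54 ± 0.14 in Nanog PGCLCs (adjusted p = 0.0116), the Nanog call being lost with median scaling (−0.36) or without Nanog array 1 (−0.33).

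Hnrnpa2b1, which binds and sorts RNA, read 11.89 and 11.84 in the mESC pair, 11.25 and 11.33 in the cytokine pair and 11.44 and 11.39 in the Nanog pair of arrays. It fell by 0.58 ± 0.09 (adjusted p = 0.000899) and 0.45 ± 0.09 (adjusted p = 0.0032) in cytokine and Nanog PGCLCs, the second call being lost with the mean of its probes (−0.12). Hnrnpk, which binds C-rich RNA, read 10.66 and 10.63, then 10.15 and 10.11, then 10.39 and 10.24. It fell by 0.51 ± 0.09 in cytokine PGCLCs (adjusted p = 0.0023) and by 0.33 ± 0.09 in Nanog PGCLCs (adjusted p = 0.0186). The Nanog call of Hnrnpk was lost without either mESC array (−0.31 and −0.34) or Nanog array 2 (−0.25).

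Hnrnpd, a regulator of the stability of AU-rich mRNA, was low in cytokine PGCLCs only. It read 7.25 and 7.64 in the mESC pair, 7.06 and 6.74 in the cytokine pair and 7.47 and 7.49 in the Nanog pair of arrays, and was detected on 1 of 2 cytokine arrays. It was called lower in cytokine PGCLCs than in mESCs (−0.54 ± 0.15, adjusted p = 0.0164) and higher in Nanog than in cytokine PGCLCs (0.58 ± 0.15, adjusted p = 0.0296). The first call was lost without mESC array 2 (−0.35) or cytokine array 2 (−0.39), and the second without any 1 of the 4 PGCLC arrays (0.42 to 0.74). Hnrnpll was called lower in cytokine PGCLCs (−0.25 ± 0.09, adjusted p = 0.0445), a call lost without any 1 of the 6 arrays (−0.20 to −0.30). A dimmer Hnrnpll probe was lower in both, at −0.64 ± 0.14 in cytokine and −0.40 ± 0.14 in Nanog PGCLCs (adjusted p over probes = 0.00652 and 0.0468). Hnrnpc, which binds U-rich RNA, read 13.94 and 13.89, then 14.00 and 14.16, then 13.98 and 13.91, and was not called. A dimmer Hnrnpc probe was lower in both, at −0.44 ± 0.10 in Nanog (adjusted p over probes = 0.00926) and −0.45 ± 0.10 in cytokine PGCLCs (adjusted p over probes = 0.00774). Hnrnpa1 gave 0.07 in both comparisons with mESCs and was not called.

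The hnRNP genes that rose were Hnrnpul2 and Hnrnph1. Hnrnpul2 read 7.03 and 7.46 in the mESC pair, 8.13 and 8.03 in the cytokine pair and 7.98 and 8.05 in the Nanog pair of arrays, a rise of 0.84 ± 0.14 (1.79-fold, adjusted p = 0.00134) and 0.78 ± 0.14 (1.71-fold, adjusted p = 0.00207). Hnrnph1 read 10.70 and 10.72, then 10.98 and 11.08, then 11.04 and 10.97, with differences of 0.32 ± 0.09 (adjusted p = 0.017) and 0.29 ± 0.09 (adjusted p = 0.0246). The Hnrnph1 calls were lost without either mESC array (0.31 and 0.33 in cytokine, 0.29 and 0.30 in Nanog PGCLCs), without cytokine array 2 (0.27) or without either Nanog array (0.26 and 0.33). Both genes had other probes that were called lower.

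Probes of one gene were not always alike: 10 genes in Nanog and 9 in cytokine PGCLCs were not called by the brightest probe (adjusted over probes) while another probe was called against mESCs, and 2 between the kinds of PGCLC. Of the 109 kept probes, 10 were higher and 39 lower in Nanog PGCLCs, while of all 10673 probes 51.6% were called (26.5% higher and 25.1% lower). In cytokine PGCLCs 14 were higher and 39 lower, while 52.6% of all probes were called (27.7% higher and 24.9% lower). Of 31 genes with several kept probes, 3 had probes called in opposite directions in each of these comparisons (Srsf11, Hnrnph1 and Hnrnpul2). Between the kinds of PGCLC, 3 probes were higher and 5 lower (20.1% of all probes were called, 10.4% higher and 9.72% lower), and 1 gene (Hnrnpa0) had probes called in opposite directions. Tests of single probes were adjusted over all probes.

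Some calls turned on the scaling or on the choice of probe. With median scaling, 17 of 27 Nanog calls and 22 of 33 cytokine calls against mESCs were kept with the same sign, while the Nanog calls of Srsf11, Sf3a1, Sf3a3, Sf3b6, Prpf38a, Prpf4, Lsm2, Hnrnpa0, Hnrnpf and Hnrnpk were lost. The cytokine calls lost with it were those of Srsf11, Srsf5, Srsf9, Snrpa, Sf3b6, Prpf18, Lsm12, Lsm2, Lsm4, Hnrnpd and Hnrnpll. Sf3a3, Prpf38a, Srsf9 and Prpf18 are named here, and Sf3a3 also above, to complete these lists, after their values were seen. With the mean of a gene's probes in place of the brightest probe, 20 of 27 and 28 of 33 were kept. Both calls of Srsf6, Srsf11, Hnrnph1 and Hnrnpul2 were then lost, as were the Nanog calls of Srsf2, Hnrnpa2b1 and Hnrnpk and the cytokine call of Lsm2.

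The second Hnrnpul2 probe differed by −0.72 ± 0.10 in Nanog (limma adjusted p = 0.000717) and −0.47 ± 0.10 in cytokine PGCLCs (adjusted p = 0.00612), opposite to the brightest probe. This second probe was detected on 3 of 6 arrays. The third Srsf11 probe was at 0.60 ± 0.11 (adjusted p = 0.00287) and 0.72 ± 0.11 (adjusted p = 0.00114), while the other 2 were at −0.58 and −0.63 in Nanog and −0.45 and −0.35 in cytokine PGCLCs. Of 5 Hnrnph1 probes, the lowest was at −0.50 ± 0.10 in Nanog (adjusted p = 0.00463) and −0.53 ± 0.10 in cytokine PGCLCs (adjusted p = 0.00342). The second Hnrnpa0 probe read 8.03 and 8.06 in the mESC pair, 7.77 and 7.63 in the cytokine pair and 7.18 and 7.25 in the Nanog pair of arrays, so it too was lower in both than in mESCs, and between Nanog and cytokine PGCLCs it was at −0.48 ± 0.10 (adjusted p = 0.0115). Hnrnpab and Snrpg, chosen after their values were seen, were not called by their brightest probes, while a second probe of each was at −1.46 ± 0.15 and −1.06 ± 0.10 in Nanog and −1.85 ± 0.15 and −1.26 ± 0.10 in cytokine PGCLCs. That Hnrnpab probe was detected on 3 of 6 arrays and read 6.63 to 7.30 in PGCLCs. That Snrpg probe was detected on 2 of 6 arrays and read 6.24 to 6.54 in PGCLCs. The sizes of these differences are therefore uncertain. Several of these genes have processed pseudogenes or several transcripts, and which of them each probe reads was not tested.

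**Figure D4:**
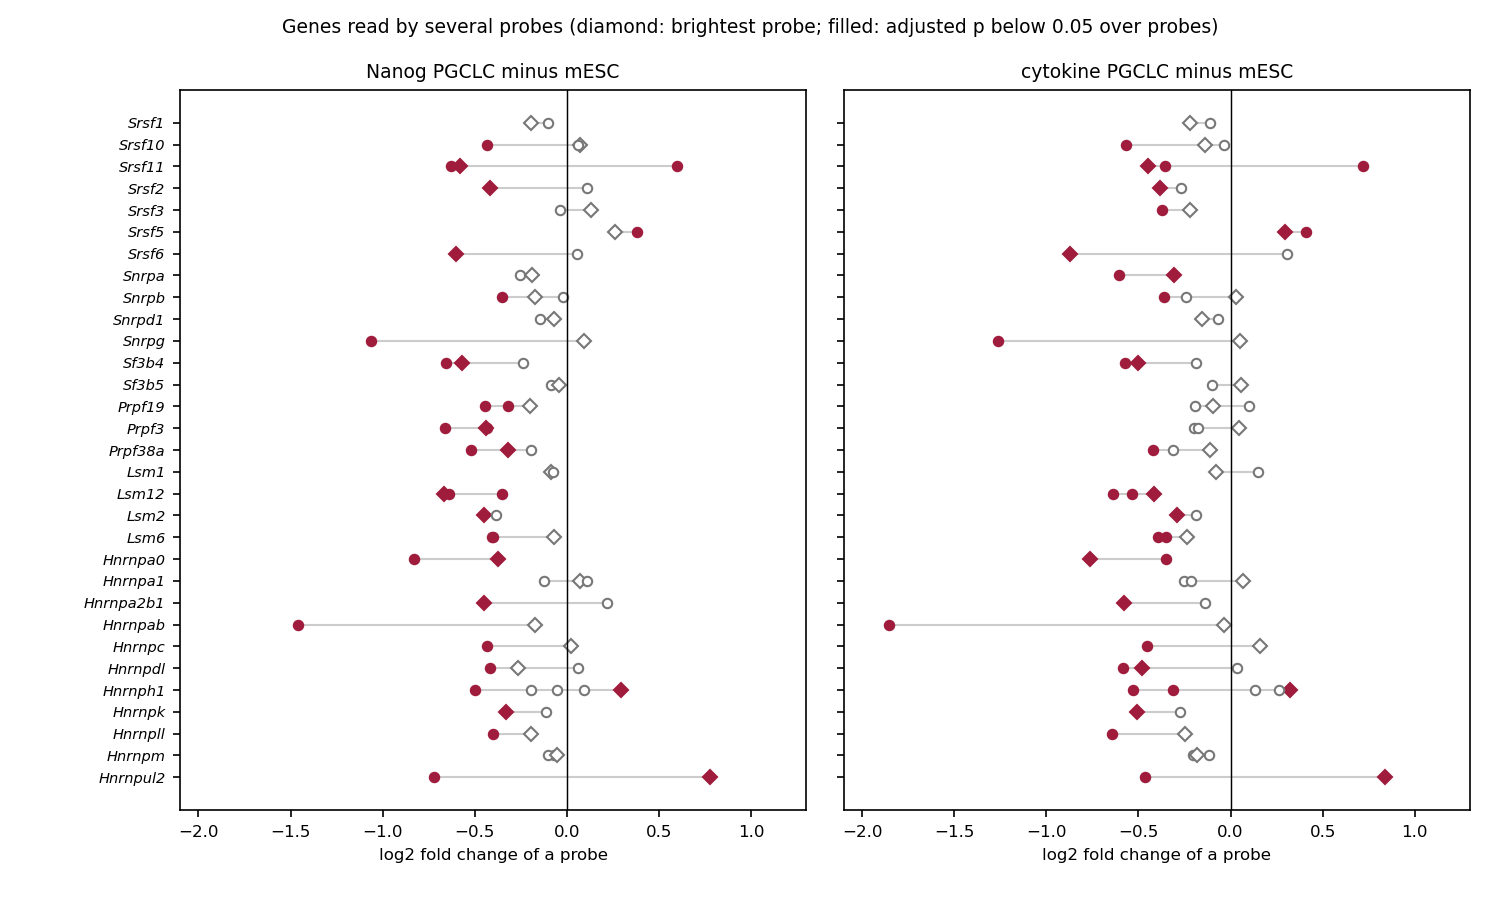
Log2 fold change against mESCs of each probe of the 31 genes read by several probes, in Nanog PGCLCs (left) and cytokine PGCLCs (right). Diamonds are the brightest probes and filled points have an adjusted p below 0.05 over probes. Probes of Srsf11, Hnrnph1 and Hnrnpul2 lie on both sides of 0.

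Beyond these families, 90 of 125 other genes of the splicing machinery on 7 fixed lists were tested. In Nanog PGCLCs 14 were higher, 33 lower and 43 not called (median −0.11), and in cytokine PGCLCs 17 were higher, 22 lower and 51 not called (median −0.07). Between Nanog and cytokine PGCLCs 1 was higher and 10 lower. The shares called were 52.2%, 43.3% and 12.2%, against 54.0%, 54.7% and 22.3% of all genes. Values for these lists and their genes, here and in the next paragraph, are from the main processing only. Against mESCs that processing gave more lower calls among the members than median scaling did. Of the 14 tested genes for snRNP assembly and methylation of Sm proteins, 7 fell and none rose in Nanog PGCLCs (median −0.37), and 6 fell and 1 rose in cytokine PGCLCs (median −0.30). Of all genes, 25.9% were lower and 28.2% higher in Nanog PGCLCs, and 24.8% lower and 29.9% higher in cytokine PGCLCs. Strap, a partner of the SMN complex, was at −0.76 ± 0.10 in Nanog and −0.66 ± 0.10 in cytokine PGCLCs, and Smn1, the SMN protein itself, at −0.58 ± 0.09 and −0.53 ± 0.09. Prmt5, the methyltransferase of Sm proteins, was at −0.83 ± 0.13 (adjusted p = 0.00084) and −0.46 ± 0.13 (adjusted p = 0.0155), and its partner Wdr77 at −0.55 and −0.86 (adjusted p = 0.00424 and 0.000419).

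The regulators of SR proteins moved in both directions. Of 16 tested kinases and SR-related proteins, 3 rose and 6 fell in Nanog PGCLCs, and 5 rose and 4 fell in cytokine PGCLCs. The 56.25% called in each is near the 54.0% and 54.7% of all genes, and so is no result about the list. Clk1, a kinase of SR proteins, read 9.61 and 9.67 in the mESC pair, 8.83 and 8.69 in the cytokine pair and 8.36 and 8.51 in the Nanog pair of arrays, a difference of −1.21 ± 0.10 in Nanog (adjusted p = 3.53e-05) and −0.88 ± 0.10 in cytokine PGCLCs (adjusted p = 0.000181). Clk2, of the same kinase family, was higher by 0.77 and 0.90. Of 18 RNA-binding regulators of alternative splicing, 5 rose and 4 fell in Nanog PGCLCs, and 4 rose and 4 fell in cytokine PGCLCs. That is 50% and 44.4% called, against 54.0% and 54.7% of all genes. Esrp1, a regulator of epithelial exons, read 8.69 and 8.71 in mESCs and rose by 2.51 ± 0.09 in Nanog (adjusted p = 9.39e-07) and by 2.38 ± 0.09 in cytokine PGCLCs (adjusted p = 9.6e-07). Mbnl2, a muscleblind regulator, was higher in Nanog than in cytokine PGCLCs by 0.82 ± 0.12 (adjusted p = 0.0023) and in Nanog PGCLCs than in mESCs by 0.97 ± 0.12 (adjusted p = 0.000252), with 0.15 in cytokine PGCLCs (adjusted p = 0.305).

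**Figure D5:**
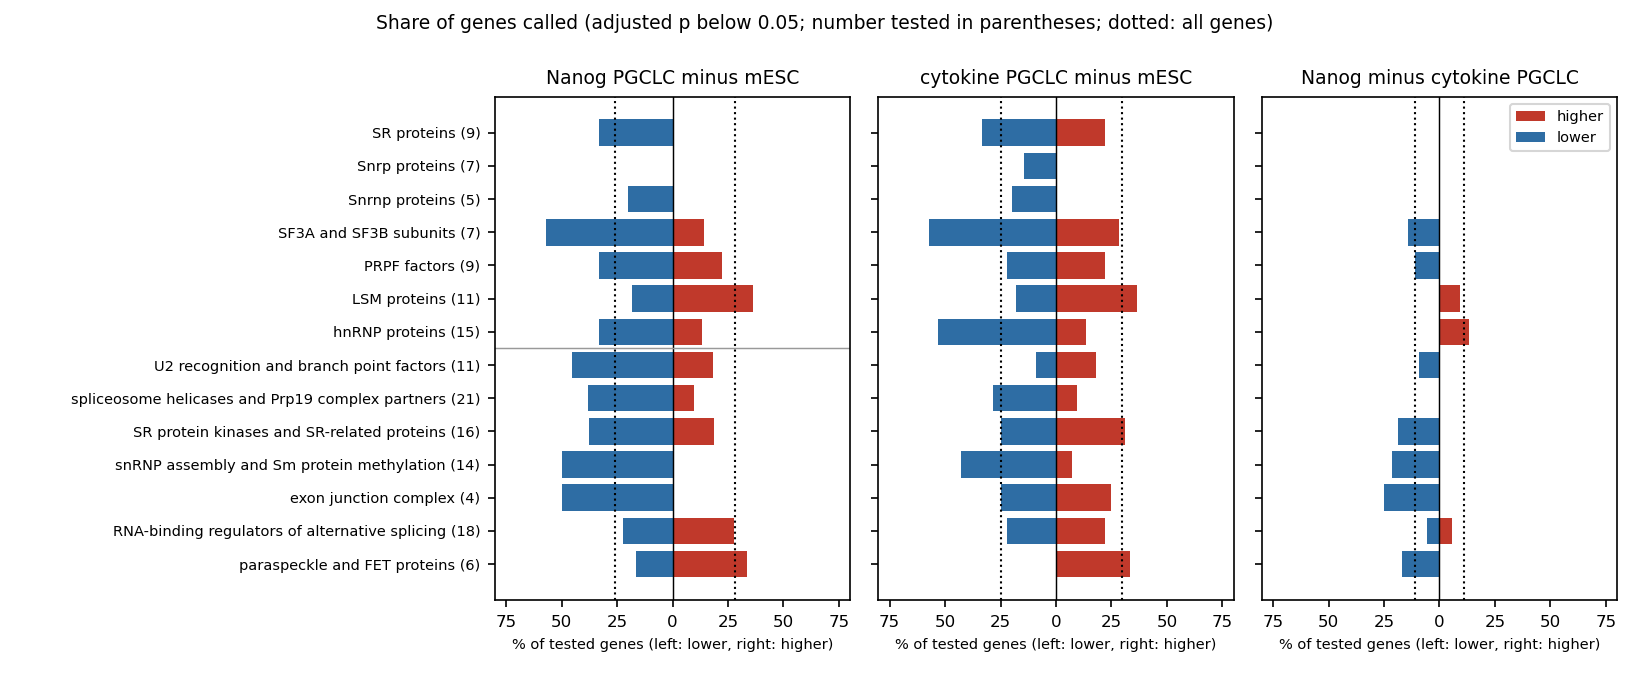
Percent of tested genes called lower (left of 0) and higher (right of 0) in each family and each list of other splicing genes, with the number tested in parentheses. Dotted lines give the percent of all genes called, and the 7 families stand above the 7 other lists. Genes for snRNP assembly have no bar to the right in Nanog PGCLCs.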

How the data were processed

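Per the labels' protocols, RNA from a column kit was amplified to biotin-labelled cRNA. Intensity values, as deposited, are scanner signals per probe, neither background corrected nor normalized as far as the values show, and the deposited detection p-values set each probe against the negative controls of its array. The authors' value table holds log2 values of 11542 probes, quantile normalized as the values show (columns equal within 0.001), and the submitters' processing notes name limma with no version. Gene names come from the platform annotation, and all 113 member probes matched RefSeq by Entrez identifier.

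Here the 45281 raw intensities per array were background corrected (normexp in limma 3.58.1, R 4.3.3, offset 16, 936 negative controls implied by the detection p-values), quantile normalized and put on the log2 scale. A probe was kept if its detection p was under 0.01 on 2 or more arrays (10673), and each gene was read by its brightest named probe (6823 genes). limma (lmFit and eBayes) fitted 1 model of 3 groups (3 residual degrees of freedom, 5.10 from the prior). Its two-sided p-values were adjusted by the Benjamini-Hochberg method. The code was also run on simulated data, whose variances and pass limit were changed after a first run, so it is not used as support. The small number of arrays limits the precision. The genes named were those with the 10 largest rises and 10 largest falls among members called in a comparison, the member with the highest mean in each family, members with probes called in opposite directions, and a panel of 33 genes by role, of which 27 were tested. The rest of the panel, named in the opening, had no named probe in the authors' value table. From each other list up to 3 called genes with the smallest adjusted p per comparison could be named. The members and lists were chosen with earlier results of these data known. Alternatives covered background, scaling, filter, probe choice, variance trend, the authors' table, blocks and each array left out.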

Additional observations from a re-analysis of the deposited data

How the results depend on the processing

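Over 18 alternatives, 10 of 27 calls in Nanog PGCLCs against mESCs, 14 of 33 in cytokine PGCLCs against mESCs and 1 of 5 between the kinds of PGCLC (Prpf3) were kept in each alternative that tested the gene. Prpf40b, counted in the first 2 numbers, was not tested where detection on all 6 arrays was required. With median scaling, Nanog PGCLCs against mESCs had 15 members higher and 8 lower (median 0.010) and cytokine PGCLCs 13 lower (median −0.046), and Nanog against cytokine PGCLCs had a median of 0.068. Of all called genes, 76.5% and 72.9% were then higher against mESCs, and of the called members 65.2% and 48.0%. Cyclic loess gave a Nanog median of −0.13, and the mean of a gene's probes gave a cytokine median of −0.14. Without background correction, with the authors' table and with a variance trend, 6 members were higher and 6 lower in Nanog than in cytokine PGCLCs. The mean of probes turned the sign of Hnrnpa0 between the kinds of PGCLC (−0.048) and of Hnrnph1 in Nanog (−0.072) and cytokine PGCLCs (−0.026). The cause was not tested. Leaving out 1 array gave Nanog medians of −0.15 to −0.052, cytokine counts of 7 to 11 higher and 12 to 19 lower with medians of −0.15 to −0.061, and counts of 0 to 3 higher and 1 to 2 lower between the kinds of PGCLC. Where 1 array remained in a group, it was assumed to vary like the other groups. Replicate numbers are shared across groups, but deviations of same-numbered arrays correlated at only 0.00154 to 0.076, so the numbers were not taken as pairs. With a replicate block, 9 members were higher and 18 lower in Nanog PGCLCs, 12 and 19 in cytokine PGCLCs, and 2 and 2 between them. A block for the brighter arrays, chosen after seeing the data, gave 9 and 18, 12 and 16, and 2 and 2. Chip position and scan could not be run as a block, since no source used here gives them.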
